A study of Mus musculus with 3 samples.

Results

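The 10 genes described here belong to the BCL2 family, the proteins that set whether a cell opens the outer membrane of its mitochondria and dies. They are the pro-survival members Mcl1, Bcl2, Bcl2l1 (encoding BCL-XL) and Bcl2a1b (an A1 copy), the effectors Bax and Bak1, and the BH3-only members Bid, Bad, Bcl2l11 (BIM) and Bbc3 (PUMA). They were picked by gene symbol, and the reads of every mRNA-table transcript that GENCODE M21 assigns to such a symbol were summed per gene. All 10 had transcripts in the table, so that none is absent. They account for 10 of 15861 genes and for 42 of 56651 listed transcripts, and 211 further transcripts of the table lie outside the annotation.

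The libraries were made from apoptotic bodies (ABs), the membrane-bound fragments that dying cells shed, of bone marrow macrophages (BMMs), preosteoclasts (pOCs) and mature osteoclasts (mOCs) from C57BL/6 mice aged 11 weeks. Per the labels, BMMs were grown with M-CSF, their survival factor, at 50 ng/mL for 72 h, and pOCs and mOCs came from BMMs given RANKL, the osteoclast-inducing cytokine, at 100 ng/mL with M-CSF at 30 ng/mL for 24 h or for at least 72 h. All cells then received an inducer of apoptosis. The labels give alendronate at 500 µM for 12 h and the study's methods staurosporine for a shorter time. The methods also give BMMs a shorter growth in M-CSF, M-CSF at 50 ng/mL with RANKL, and mOCs a longer time in RANKL. Titles of the samples name cells whereas the series design speaks of ABs, 1 library stands for each kind (BMM-ABs, pOC-ABs, mOC-ABs), and no source says whether cultures or animals were pooled.

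Pro-survival members hold the effectors in check by gripping their BH3 helix, BH3-only members occupy that grip or switch the effectors on, and BAX and BAK form the pores through which cytochrome c leaves the mitochondria. BIM is known to promote the death of osteoclasts, and M-CSF and RANKL to keep them alive. PUMA and the BH3-only protein Noxa are textbook targets of p53. MCL1 is a short-lived protein that most blood cells need.

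The BH3 core is the short stretch that the members share and through which they bind each other, so its coding bases are shown for the most read coding transcript of each gene. The search was for a leucine, any pair of residues, then isoleucine, methionine, valine or alanine, then glycine, alanine or serine, then aspartate. It matched once in 9 members and in 1946 of 21866 protein-coding genes (8.90%), so a match alone does not mark a family member. Capitals mark the 18 matched bases with 6 coding bases on each side, from GENCODE M21 transcripts on GRCm38, each written 5′ to 3′ on its own strand.
Mcl1, codons 194 to 199, chr3:95659430-95659459, plus strand: gagaccCTGCGGCGCGTGGGCGACggcgtg
Bcl2, codons 94 to 99, chr1:106712578-106712607, minus strand: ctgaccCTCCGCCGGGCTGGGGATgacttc
Bcl2l1, codons 90 to 95, chr2:152829700-152829729, minus strand: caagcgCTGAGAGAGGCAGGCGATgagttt
Bax, codons 63 to 68, chr7:45466000-45466029, minus strand: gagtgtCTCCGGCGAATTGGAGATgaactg
Bak1, codons 76 to 81, chr17:27022534-27022563, minus strand: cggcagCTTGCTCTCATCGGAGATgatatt
Bid, codons 90 to 95, chr6:120897292-120897321, minus strand: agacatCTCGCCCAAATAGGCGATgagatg
Bad, codons 151 to 156, chr19:6950786-6950815, plus strand: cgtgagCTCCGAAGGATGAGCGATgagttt
Bcl2l11, codons 94 to 99, chr2:128147144-128147173, plus strand: caggagCTGCGGCGGATCGGAGACgagttc
Bbc3, codons 141 to 146, chr7:16313767-16313796, plus strand: gcccagCTGCGGCGGATGGCGGACgacctc
Among the 18 core positions 4 carried the same base in all 9 genes. They lie in the codons of the leucine and the aspartate that the search required, so they are no sign of conserved bases. The coding sequence of Bcl2a1b held no match, which says only that these letters are not in it.

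The mRNA tables held 9100082, 7387317 and 7705592 reads in the BMM-AB, pOC-AB and mOC-AB libraries, and 3 reads, the limit that a count of 0 allows, come to between 0.330 and 0.406 CPM, the reads of a gene scaled to a table of 1000000 reads. Lists of 3 values follow this order of libraries throughout. The lncRNA table held a larger share of the reads of both tables in pOC-ABs (37.7%) than in BMM-ABs (28.5%) and mOC-ABs (33.3%), and mitochondrial transcripts took 5.76% of the mRNA reads in pOC-ABs against 2.90% and 2.87%. Summed osteoclast markers stood at 345, 581 and 1870 CPM, with Itgb3 at 6, 3 and 0 reads and Calcr not listed, and summed macrophage markers at 2748, 1465 and 1412. Markers of neutrophils and erythroid cells were not listed, and those of B, T, stromal and endothelial cells summed to at most 6.10 CPM. The part of these differences between libraries in the results was not tested.

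The members together took 10665 reads in the BMM-AB, 9882 in the pOC-AB and 8818 in the mOC-AB library, which is 0.117%, 0.134% and 0.114% of the mRNA-table reads. Levels are given as CPM and, for comparison between genes, as the deposited FPKM, which also divides by transcript length. As in any bulk measurement, fewer ABs that carry an mRNA within a library and less of that mRNA per AB cannot be told apart. With 1 library per group no difference could be set against a spread between replicates, so no test is given, and the intervals of ratios (exact binomial, 95%) cover counting error only.

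In G1, the ratio of pOC-ABs to BMM-ABs, 1 of the 10 members passed 2-fold upwards, Bid, and none passed it downwards, where 619 of 12713 genes with at least 20 reads (4.87%) had a ratio above 2 and 771 (6.06%) a ratio below 0.5. In G2, mOC-ABs against BMM-ABs, Bid was again above 2 and Bbc3 was below 0.5, with 4.15% and 9.01% of genes past these limits. In G3, mOC-ABs against pOC-ABs, no member was above 2 and Bcl2l1 was below 0.5, with 3.5% and 6.86% of genes past them. The counts of 1 in 10 are too small to read against these shares. The comparisons share libraries, so their results are not independent of each other.

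**Figure D1:**
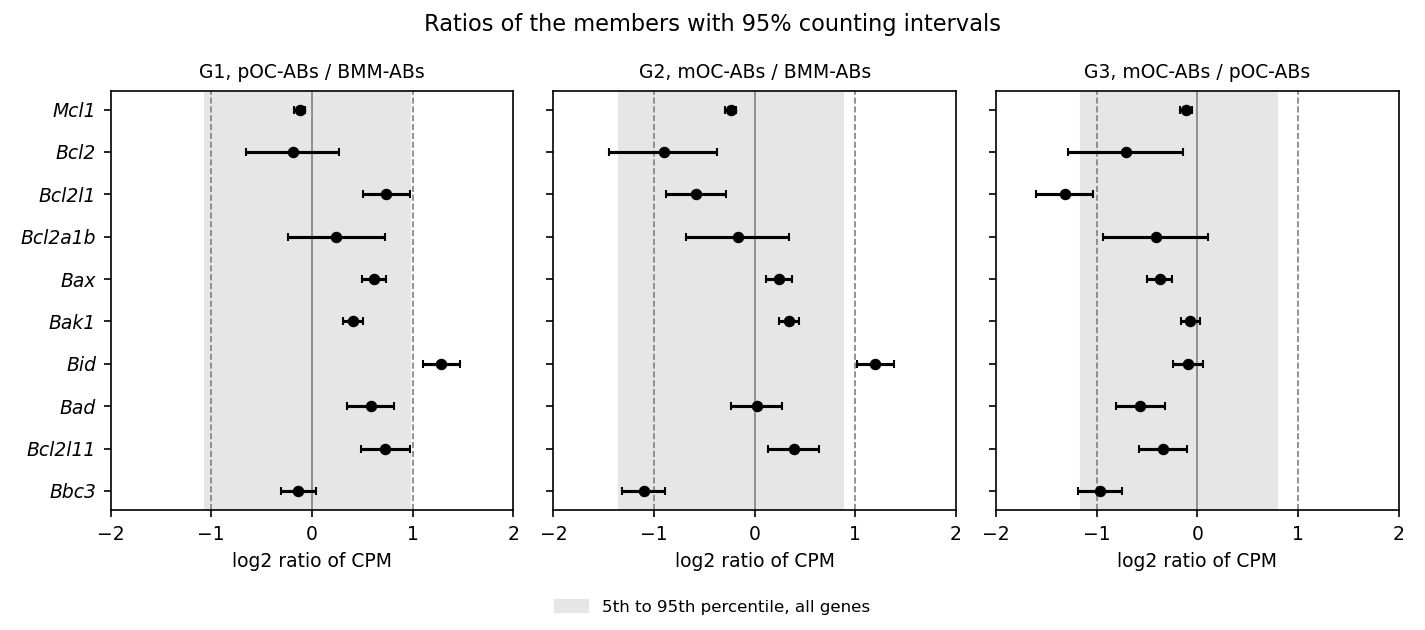
Log2 ratios (x axis) of the CPM of each BCL2 family member (y axis) in G1, G2 and G3, as points with exact binomial 95% intervals for counting error. The grey band spans the 5th to 95th percentile of all genes and the dashed lines mark 2-fold. Bid lies right of the dashed line in G1 and G2, Bbc3 left of it in G2 and Bcl2l1 left of it in G3.

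The median log2 ratio of the members stood at 0.50 for G1, at -0.08 for G2 and at -0.39 for G3, where that of all genes was -0.02, -0.05 and -0.05, counted over genes with reads in both libraries. In G1 7 members were higher and 3 lower, and in G2 5 were higher and 5 lower. In G3 all 10 were lower in mOC-ABs, from -0.07 for Bak1 to -1.32 for Bcl2l1, but Bak1 and Bid turned to 0.03 and 0.01 when reads were scaled to both tables together. With the most read transcript of each gene only, 4 members were higher in mOC-ABs in G3, Bcl2l1 at 0.63, Bcl2l11 at 0.38, Bbc3 at 0.24 and Bak1 at 0.13, and on protein-coding transcripts only Bak1 was at 0.12. Scaling to both tables moves the median of all genes to -0.22 in G1, -0.15 in G2 and 0.05 in G3, and among genes past 2-fold in G1 the share above 2 from 44.5% to 26.9%. A scaling shifts all genes alike, so the place of Bak1 and Bid against the median of all genes in G3 is the same under both. They lay slightly below it, but their counting intervals, -0.17 to 0.03 and -0.24 to 0.06, include the median of -0.05.

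**Figure D2:**
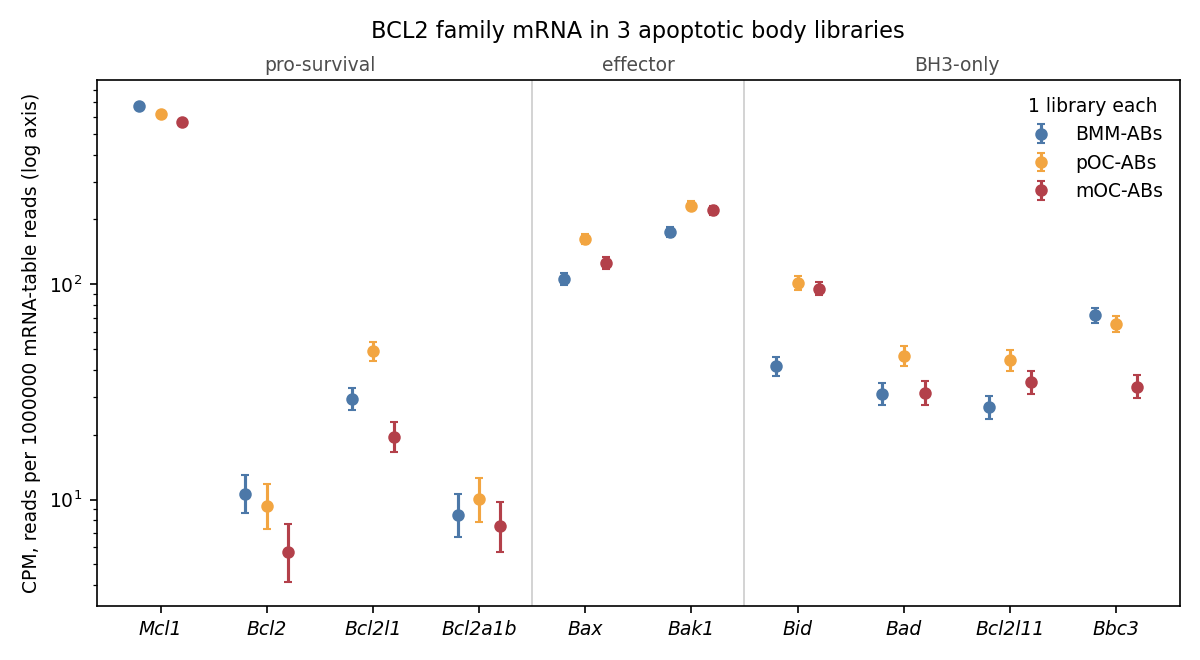
CPM, the reads per 1000000 mRNA-table reads (y axis, log scale), of each BCL2 family member (x axis, grouped by role) in the BMM-AB, pOC-AB and mOC-AB libraries, with exact Poisson 95% intervals. Mcl1 lies highest, between 570.0 and 672, and Bcl2 and Bcl2a1b lowest, at or under 10.7 CPM.

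Mcl1 (chr3:95658788-95663176) was the most read member in each library. It had 6112 reads in the BMM-AB, 4562 in the pOC-AB and 4392 in the mOC-AB library, or 672, 618 and 570.0 CPM. The level was highest in BMM-ABs and lowest in mOC-ABs, and the log2 ratio of -0.24 (-0.29 to -0.18) in G2 was the widest of its differences. Nearly all reads lay on Mcl1-201 (331 codons), which took 99.9% of them in every library, while Mcl1-202 (285 codons) had 6 reads in each.

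Bcl2 (chr1:106538178-106714274), the founding pro-survival gene, was among the least read members. It had 97 reads in the BMM-AB, 69 in the pOC-AB and 44 in the mOC-AB library, or 10.7, 9.34 and 5.71 CPM. Its log2 ratio in G2 was -0.90, with an interval from -1.45 to -0.37 that reaches past 2-fold, and the interval of G1 (-0.66 to 0.27) spans no difference. With reads of lncRNA-table transcripts at its locus added, G2 was -1.67 and G3 -1.35, both past 2-fold. Of these, NONMMUT002237.2, NONMMUT002236.2 and ENSMUST00000192399 cover no exon base of either Bcl2 transcript, so the sum is not a level of Bcl2 mRNA. Both transcripts were ordered alike, Bcl2-201 (236 codons) with 76, 57 and 37 reads and Bcl2-202 (199 codons) with 21, 12 and 7. Bcl2-202 is an mRNA of a single exon at the 5′ side of the gene, and at 7 reads its level in mOC-ABs is known only coarsely.

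Bcl2l1 (chr2:152780668-152831728) encodes BCL-XL and, by another splice of the same gene, the pro-apoptotic BCL-XS. It had 267 reads in the BMM-AB, 361 in the pOC-AB and 151 in the mOC-AB library, or 29.3, 48.9 and 19.6 CPM. The pOC-AB library was the highest, and the log2 ratio of G3 was -1.32 (-1.60 to -1.04), a level 2.49-fold lower in mOC-ABs. Its whole interval lies past 2-fold, whereas G1 gave 0.74 and G2 -0.58. The directions depend on which transcript is counted, since with the most read transcript alone, Bcl2l1-202, G1 became -0.91 (-1.36 to -0.48) and G3 0.63, both opposite to those of the gene. In FPKM, G2 was -1.10 and past 2-fold.

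The main transcripts of Bcl2l1 differ in their first exon. Bcl2l1-202, which starts at chr2:152830386-152830666, had 148, 64 and 103 reads in the BMM-AB, pOC-AB and mOC-AB libraries. Bcl2l1-201, which starts upstream at chr2:152831603-152831728, had 6, 217 and 26. Both encode the same 233 codons, so these transcripts differ in the annotated start of the BCL-XL mRNA and not in what it encodes. The division of reads between them is an estimate, and less read forms with other coding sequences are not covered by this. Bcl2l1-201 was 2.25%, 60.1% and 17.2% of the gene's reads, and in CPM it was 44.6-fold higher in pOC-ABs than in BMM-ABs (log2 5.48, 4.33 to 6.94). Bcl2l1-209 is annotated as a processed transcript with no coding sequence, and its 46, 43 and 9 reads were 4.98-fold lower in mOC-ABs than in pOC-ABs.

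Bcl2a1b (chr9:89199209-89207827) is a copy of the A1 gene, which NF-κB signalling induces in leukocytes. It had 77 reads in the BMM-AB, 74 in the pOC-AB and 58 in the mOC-AB library, or 8.46, 10.02 and 7.53 CPM. The intervals of all 3 ratios span no difference, so a change was not detectable at this depth. Its coding sequence of 516 bases is 97.9% identical to that of Bcl2a1a and 98.8% to that of Bcl2a1d, so that reads may be shared between them. Bcl2a1a had 33, 33 and 37 reads, Bcl2a1d 127, 134 and 121, and Bcl2a1c was not listed. Of the first exon of Bcl2a1b-201, 401 of 571 bases are also covered by exons of Gm29094 on the same strand, which had 8, 22 and 10 reads.

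Bax (chr7:45461697-45466898), whose protein moves from the cytosol to mitochondria when it is activated, had the highest FPKM of the family in pOC-ABs. It had 964 reads in the BMM-AB, 1200 in the pOC-AB and 966 in the mOC-AB library, or 106, 162 and 125 CPM. In FPKM this was 124, 188 and 147, so that Bax ranked 2, 1 and 2 of the members. The log2 ratio of G1 was 0.62 (0.49 to 0.74) and that of G3 -0.37 (-0.50 to -0.25), neither past 2-fold. The pOC-AB library stood above both others by more than the counting error.

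Most Bax reads lay on a form whose last exon is 4 bases shorter than that of the longest coding form. Bax-205 (171 codons) had 507, 801 and 657 reads, or 52.6%, 66.8% and 68.0% of the gene's reads. Bax-201 (192 codons), the form that ends in the membrane anchor, had 98, 58 and 113 reads, and Bax-203, of incomplete 5′ or 3′ annotation, 325, 327 and 188. The first exons of Bax-201 and Bax-205 also differ, with 157 and 95 bases. The exon edges are shown because 4 bases separate the coding ends, and how the reads divide between the forms is uncertain. Capitals mark the 4 bases.
Bax-201, chr7:45461942-45463419, minus strand: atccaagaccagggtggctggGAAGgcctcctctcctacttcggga
Bax-205, chr7:45461942-45463419, minus strand: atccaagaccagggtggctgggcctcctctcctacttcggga

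Bak1 (chr17:27019810-27029009), the effector that sits in the outer mitochondrial membrane, was the member with the most reads after Mcl1. It had 1591 reads in the BMM-AB, 1712 in the pOC-AB and 1702 in the mOC-AB library, or 175, 232 and 221 CPM. Summed over transcripts it stayed within 2-fold, with log2 ratios of 0.41 (0.31 to 0.51) in G1, 0.34 (0.24 to 0.44) in G2 and -0.07 (-0.17 to 0.03) in G3. The sum joins mRNAs that differed in opposite directions.

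Bak1-202, the mRNA of full-length BAK (209 codons), had 760 reads in the BMM-AB, 1441 in the pOC-AB and 1645 in the mOC-AB library. Bak1-201 had 811, 248 and 37. It carries an extra exon of 20 bases, exon 5 of 7, which shifts the reading frame so that the annotated coding sequence ends after 151 codons, 92 bases before the last exon junction, and the annotation lists it as a substrate of nonsense-mediated decay (NMD). A Bak1 mRNA with a small extra exon is known from neurons. The exon is shown in capitals between the exons that flank it in both transcripts.
Bak1-201, chr17:27021327-27022459, minus strand: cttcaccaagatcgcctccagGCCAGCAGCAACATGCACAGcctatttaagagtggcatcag
Bak1-202, chr17:27021327-27022459, minus strand: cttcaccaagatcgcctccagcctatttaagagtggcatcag
The transcripts also differ in their first exons, of 168 and 599 bases, so that the read assignment rests on more than the 20 bases at chr17:27021663-27021682. Bak1-201 took 51.0%, 14.5% and 2.17% of the gene's reads, and in CPM it was 18.6-fold lower in mOC-ABs than in BMM-ABs (log2 -4.21, -4.73 to -3.74). Bak1-202 was 2.34-fold higher in G1 and 2.56-fold higher in G2. Counted on protein-coding transcripts only, Bak1 therefore passed 2-fold in G1 (log2 1.21) and G2 (1.33). Bak1-203, a shorter mRNA, had 63 reads in the 3 libraries together.

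Bid (chr6:120891930-120916853), whose protein caspase-8 cuts to link death receptors to mitochondria, had the highest ratios of the family in G1 and G2. It had 379 reads in the BMM-AB, 751 in the pOC-AB and 736 in the mOC-AB library, or 41.6, 102 and 95.5 CPM. Both RANKL-treated libraries lay well above BMM-ABs and close to each other. The level was 2.44-fold higher in pOC-ABs (log2 1.29, 1.11 to 1.47) and 2.29-fold higher in mOC-ABs (log2 1.20, 1.02 to 1.38) than in BMM-ABs, with both intervals wholly past 2-fold. G3 gave -0.09 (-0.24 to 0.06).

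The higher level in pOC-ABs lay on Bid-201, the main mRNA, with 343, 681 and 489 reads in the BMM-AB, pOC-AB and mOC-AB libraries. Bid-204, with the same 195 codons but an additional last exon after the stop codon and listed as NMD, had 24, 66 and 229 reads, which is 6.33%, 8.79% and 31.1% of the gene. In CPM it was 11.3-fold higher in mOC-ABs than in BMM-ABs (log2 3.49, 2.88 to 4.17). All 628 bases of that last exon, chr6:120891930-120892557, are covered by exons of Bcl2l13 on the opposite strand. They also lie inside the locus of NONMMUT058677.2, a transcript of the lncRNA table with no strand given. The libraries are not stated to keep strand, so reads of these and of the exon cannot be told apart. Bcl2l13 had 815, 532 and 581 reads, a log2 ratio of -0.25 in G2, and NONMMUT058677.2 had 2, 1 and 18 reads, highest in mOC-ABs. The part of either in the level of Bid-204 was not tested. On protein-coding transcripts only, Bid in G2 was 0.74 and no longer past 2-fold, while G1 was 1.27. Bid-205, a retained-intron transcript, had 6, 2 and 8 reads.

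Bad (chr19:6941861-6951899), whose protein survival kinases hold inactive by phosphorylation, was highest in pOC-ABs. It had 281 reads in the BMM-AB, 342 in the pOC-AB and 241 in the mOC-AB library, or 30.9, 46.3 and 31.3 CPM. The log2 ratio was 0.58 (0.35 to 0.82) in G1, 0.02 (-0.24 to 0.27) in G2 and -0.57 (-0.81 to -0.32) in G3. The near-zero value of G2 joined opposite differences of the main mRNAs, and with the most read transcript only G1 was 1.40 and G2 1.23.

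Bad-202 (162 codons), which starts at chr19:6942501-6942624, had 168, 139 and 61 reads in the BMM-AB, pOC-AB and mOC-AB libraries. Bad-201 (204 codons), with its first exon upstream at chr19:6941861-6942440, had 87, 186 and 173. The shorter form was the more read in BMM-ABs (59.8% of the gene's reads) and the longer in mOC-ABs (71.8%). In G2 Bad-201 was 2.35-fold higher (log2 1.23, 0.85 to 1.62) and Bad-202 2.33-fold lower (log2 -1.22, -1.67 to -0.79). Of the 580 bases of the first exon of Bad-201, 517 are also covered by exons of Gpr137 on the opposite strand, which had 218, 194 and 190 reads, or 24.0, 26.3 and 24.7 CPM. Bad-204, of incomplete annotation, had 32 reads in all.

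Bcl2l11 (chr2:128126038-128162547) makes the BIM forms extra long, long and short, which bind all pro-survival members and differ in how they are restrained. It had 244 reads in the BMM-AB, 328 in the pOC-AB and 270 in the mOC-AB library, or 26.8, 44.4 and 35.0 CPM. pOC-ABs were the highest, with log2 ratios of 0.73 (0.48 to 0.97) in G1, 0.39 (0.13 to 0.64) in G2 and -0.34 (-0.58 to -0.11) in G3. No ratio of the gene passed 2-fold, while with the most read transcript only G2 was 1.36 and G3 0.38.

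The coding forms came in a different mix in each library. Bcl2l11-205 (196 codons) had 64, 155 and 68 reads and was highest in pOC-ABs, 2.98-fold over BMM-ABs. Bcl2l11-203 (140 codons) had 83, 133 and 180 reads and was 2.56-fold higher in mOC-ABs than in BMM-ABs. Bcl2l11-201 (110 codons), the shortest form, had 53 reads in BMM-ABs and 0 in both others. The exact intervals, which include the counting error of the 53 reads, put its log2 ratio below -3.49 in G1 and below -3.55 in G2. Bcl2l11-204, named after its values were seen because it encodes the same 110 codons, had 1, 11 and 6 reads, so the short coding sequence was not absent from the RANKL-treated libraries. The short form joins exon 2 directly to the exon with the BH3 core and skips an exon of 90 bases. The exon edges are printed with the first bases after exon 2 in capitals.
Bcl2l11-203, chr2:128128736-128128945, plus strand: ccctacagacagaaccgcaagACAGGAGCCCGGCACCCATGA
Bcl2l11-201, chr2:128128736-128147105, plus strand: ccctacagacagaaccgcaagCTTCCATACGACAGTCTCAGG

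Bbc3 (chr7:16308393-16318205) encodes PUMA, which binds every pro-survival member. It had 653 reads in the BMM-AB, 483 in the pOC-AB and 258 in the mOC-AB library, or 71.8, 65.4 and 33.5 CPM. mOC-ABs were below both others, 2.14-fold lower than BMM-ABs (log2 -1.10, -1.31 to -0.89) and 1.95-fold lower than pOC-ABs (log2 -0.97, -1.19 to -0.74). Both intervals reach to either side of 2-fold.

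The lower level lay almost wholly outside the full-length mRNA. Bbc3-201, which encodes PUMA (193 codons), had 299, 189 and 233 reads in the BMM-AB, pOC-AB and mOC-AB libraries, or 32.9, 25.6 and 30.2 CPM, so it differed by at most 1.28-fold. Bbc3-203, a retained-intron transcript, had 295, 247 and 12 reads and was 20.8-fold lower in CPM in mOC-ABs than in BMM-ABs (log2 -4.38, -5.35 to -3.55). Bbc3-202, of incomplete coding annotation, had 53, 43 and 10 reads. On protein-coding transcripts only, the ratio of the gene in G2 was -0.30 and in G3 -0.00098, so neither passed 2-fold. With the most read transcript only, G2 was -0.12 and G3 0.24. With reads of overlapping lncRNA-table transcripts added, G1 was 0.64, G2 -0.60 and G3 -1.24. Nearly all of these reads were of NONMMUT151442.1, whose locus covers 9.92% of the exon bases of Bbc3-201. In FPKM G2 was -1.63 and G3 -1.57, so that G3 was past 2-fold both with FPKM and with the added reads. Bbc3-203 starts with the last 110 bases of the intron before exon 3, and the junction is shown with exon 3 in capitals, after the intron in the first line and after exon 2 in the second.
Bbc3-203, chr7:16313597-16313656, plus strand: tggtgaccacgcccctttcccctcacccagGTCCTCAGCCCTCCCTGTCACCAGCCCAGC
Bbc3-201, chr7:16312385-16313656, plus strand: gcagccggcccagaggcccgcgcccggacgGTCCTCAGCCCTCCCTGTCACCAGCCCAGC

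**Figure D3:**
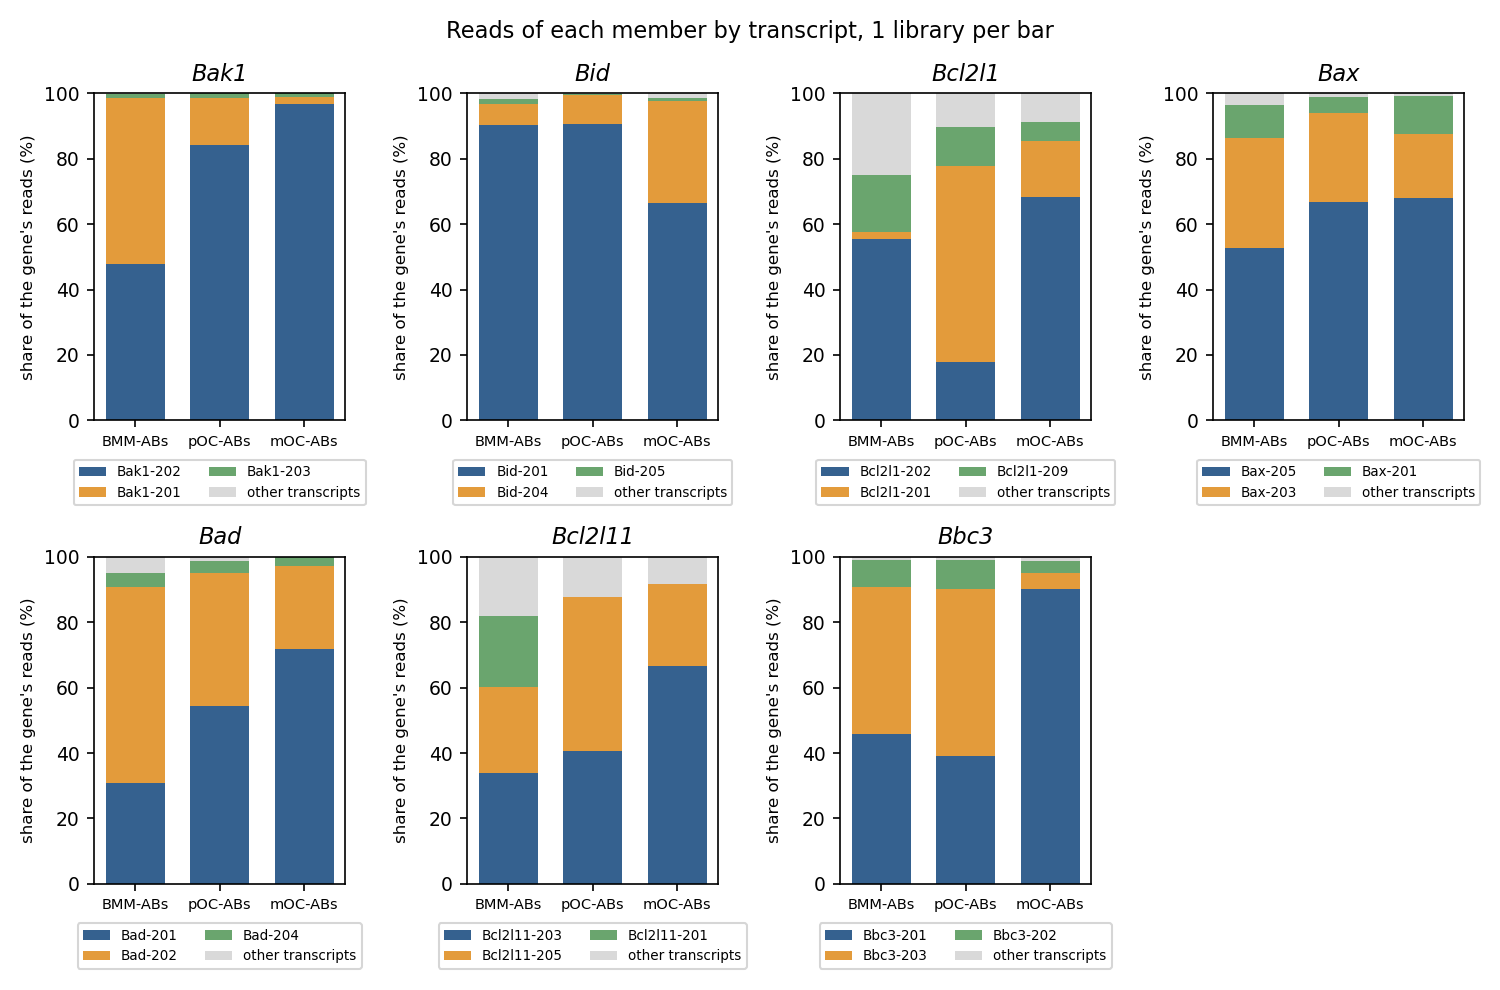
Share of each gene's reads (y axis, %) by transcript in the BMM-AB, pOC-AB and mOC-AB libraries (x axis) for 7 members, with 1 bar per library and the named transcripts in colour. Bak1-201 is 51.0% in BMM-ABs and 2.17% in mOC-ABs, Bbc3-203 is 45.2% and 4.65% in these, and Bcl2l1-201 is widest in pOC-ABs at 60.1%.

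Of the 42 member transcripts 30 had at least 20 reads over the 3 libraries. Past 2-fold either way were 10 of the 30 in G1, 16 in G2 and 11 in G3. Of all transcripts with at least 20 reads, 36.3% passed 2-fold in G1, 38.1% in G2 and 35.7% in G3, so transcript changes of this size were common throughout the table and the members' count is near that background in G1 and G3. Transcripts of a gene share most of their exons, and the authors' division of reads among them carries an error that is not in the counting intervals.

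Transcripts annotated as protein coding held 88.4% of the members' reads in BMM-ABs (Wilson 95% interval 87.8% to 89.0%), 93.4% in pOC-ABs (92.9% to 93.9%) and 96.3% in mOC-ABs (95.9% to 96.7%). NMD transcripts, which were Bak1-201 and Bid-204, held 7.83%, 3.18% and 3.02%, against 2.14%, 1.78% and 1.91% over the whole mRNA table. Without Mcl1 they held 18.3%, 5.90% and 6.01%. In mOC-ABs 229 of the 266 NMD reads were of Bid-204, whose last exon overlaps Bcl2l13 and NONMMUT058677.2. Retained-intron transcripts, mainly Bbc3-203 in BMM-ABs and pOC-ABs, held 2.90%, 2.66% and 0.318%. Over the whole mRNA table retained-intron transcripts took 5.22%, 4.21% and 3.84% of the reads and protein-coding ones 81.2%, 77.7% and 80.4%. Mcl1, read almost wholly on a coding transcript, weighs on the members' shares, which without it were 6.79%, 4.94% and 0.633% for retained introns and 72.9%, 87.8% and 92.7% for protein-coding transcripts. The order of members and table in BMM-ABs was thus turned for both types, as it was in pOC-ABs for retained introns. The intervals of the members' protein-coding share do not overlap, but the shares rest on a few transcripts of Bak1, Bid and Bbc3.

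**Figure D4:**
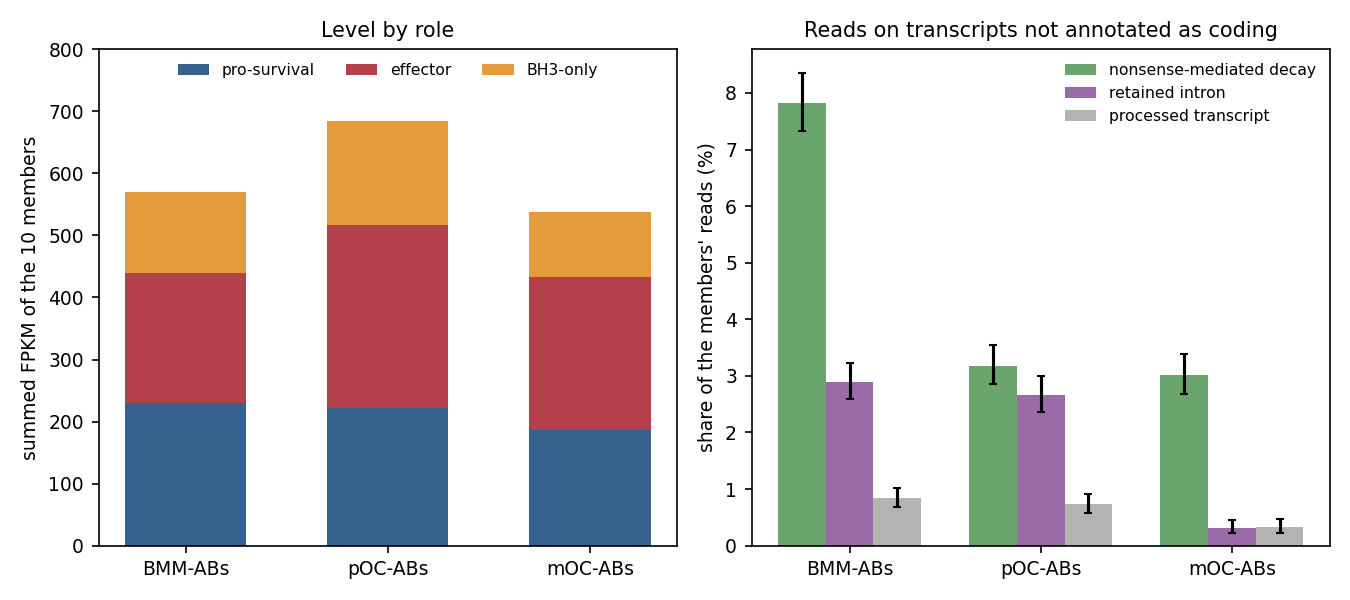
Left, summed FPKM of the 10 members (y axis) by role in each library, with no error bars since FPKM has no replicates. Right, share of the members' reads (y axis, %) on transcripts annotated as nonsense-mediated decay, retained intron or processed transcript, with Wilson 95% intervals. The effector part is 36.8% of the level in BMM-ABs and 45.7% in mOC-ABs, and the retained-intron share is lowest in mOC-ABs at 0.318%.

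On the FPKM scale, which allows levels of different genes to be added, the members summed to 569.9 in the BMM-AB, 684 in the pOC-AB and 537 in the mOC-AB library. Pro-survival members held 40.2%, 32.5% and 34.8% of this level, effectors 36.8%, 43.0% and 45.7%, and BH3-only members 23.0%, 24.5% and 19.5%. Effectors stood above pro-survival members in pOC-ABs and mOC-ABs on this scale, but that order turned on reads, which are not divided by length, where pro-survival members held 61.4%, 51.3% and 52.7%. Mcl1 made up most of the pro-survival part, and without it that part was 8.66%, 8.19% and 5.27% of the remainder. The order of FPKM within a library was led by Mcl1 and Bax, with Bak1 next in each, and Bcl2 was last in each at 1.97, 1.64 and 0.991. Bcl2a1b followed from the bottom at 10.4, 12.3 and 9.21.

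Among 16 further family genes 12 were listed and 9 had at least 20 reads. Bcl2l2 (BCL-W, pro-survival) had 418, 61 and 99 reads and was lower in G1 (log2 -2.48) and G2 (-1.84). Bmf, a BH3-only gene, had 571, 202 and 581 reads, lower in G1 (-1.20) and higher in G3 (1.46). None of the other 7 passed 2-fold, and Pmaip1, which encodes Noxa, came closest with 606, 906 and 997 reads (0.88 in G1 and 0.96 in G2). The median log2 ratio of the 9 genes was 0.29, 0.11 and 0.08 in G1, G2 and G3.

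The 18 genes that act with or after the family at mitochondria were all read, and 1 of them passed 2-fold. Cycs, which encodes cytochrome c, had 225, 492 and 281 reads and was higher in G1 (log2 1.43). The median of this list was 0.11, 0.26 and 0.09. Of 13 genes that induce or turn over members, none passed 2-fold in G1 and 3 were lower in both G2 and G3. These were Ddit3 (CHOP, 489, 348 and 130 reads), Trib3 (673, 433 and 103 reads), both of the endoplasmic reticulum stress response, and the death receptor gene Fas (10, 16 and 0 reads), for which the count of 0 sets only a limit. Trp53, the p53 gene, had log2 ratios of -0.07, 0.28 and 0.35. Of all genes with at least 20 reads, 4.87%, 4.15% and 3.5% were above 2 in G1, G2 and G3. Below 0.5 were 6.06%, 9.01% and 6.86%. The counts in these lists and among the further family genes are too small to read against such shares.

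The genes whose pattern over the 3 libraries lay closest to that of a member past 2-fold were sought among 9880 protein-coding genes with at least 100 reads, by the distance of centred log2 CPM. Closest to Bid were Slc35d1, with 6.37, 15.4 and 14.5 CPM, then Zcchc10 and Atp5k, at distances of 0.0085, 0.061 and 0.105, and 21 genes lay within 0.2. Bbc3 was followed by Arl14ep, Mef2c and Usp12 at 0.018, 0.026 and 0.036, with 120 genes within 0.2. For Bcl2l1 these were Polg2, Lrr1 and Zik1 at 0.019, 0.077 and 0.085, with 41 genes within 0.2. With 3 libraries a pattern has few degrees of freedom, so such neighbours are a description of these libraries. No back-splice junction of a circRNA, of 1372 listed, was assigned to a member.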

How the data were processed

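The authors deposited whole-number read counts and FPKM per transcript in 3 columns that carry 0 h, 24 h and 72 h, matched to BMMs, pOCs and mOCs by their time in RANKL. The submitters' processing notes name FastQC, HISAT2, StringTie and GRCm38, with no version and no role, and the study's methods describe paired-end libraries from poly-T-purified RNA, with strand not stated. Deposited FPKM was found to divide by the sum of mRNA-table reads of its library. FPKM of the lncRNA table and the circRNA values were not used, and 0 per-sample columns stayed unmapped.

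Counts were summed per gene symbol (GENCODE M21), divided by the mRNA-table total, and kept at 20 or more reads over the 3 libraries. A gene was called past a ratio of 2 or 0.5. Ratio intervals are exact binomial and shares Wilson, both 95%, and cover counting error only, since reads carry no molecular identifiers. Calls were tested on simulated counts of genes with at least 100 reads, with planted changes well past 2-fold and no spread between replicates. Changes near 2-fold and genes with fewer reads were not simulated. Transcripts named are the 3 most read of each member and those with at least 50 reads that differ over 8-fold between libraries. Listed genes were named when past 2-fold, as were the Bcl2a1 copies, and Pmaip1, Bcl2l13, Gpr137, Gm29094, Trp53 and Bcl2l11-204 were added after their values were seen. Like genes are the 3 nearest by Euclidean distance. The members and lists were chosen with earlier results of these data known. Python 3.11.15, pandas 2.3.3, SciPy 1.17.1 and matplotlib 3.10.9 were used. The alternatives were other scalings, FPKM, protein-coding or most read transcripts only, lncRNA-table reads added, other minimums of reads, a pseudocount of 1 and the Bcl2a1 copies summed, and after seeing the data the protein-coding share without Mcl1.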

Additional observations from a re-analysis of the deposited data

Results flagged for a closer look

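Reads of lncRNA-table transcripts whose loci overlap a member gene were outside the main measurement and stood above the limit that a count of 0 allows. Such reads numbered 1427 at Bbc3, 222 at Bcl2l1, 164 at Bcl2, 109 at Bid, 74 at Bad and 37 at Bcl2l11, over the 3 libraries. At Bbc3 they were 347 in the BMM-AB, 779 in the pOC-AB and 301 in the mOC-AB library, against 653, 483 and 258 reads of the gene itself in the mRNA table. Nearly all lay on NONMMUT151442.1 (chr7:16307993-16309795), with 336, 764 and 295 reads. Its locus covers 180 of the 246 bases of the first exon of Bbc3-201, and no other exon base of that transcript. Most of the locus lies before chr7:16309616, where Bbc3-201 starts, and it covers no exon base of Bbc3-202 or Bbc3-203. The table gives no strand for it. With these reads added, Bbc3 turned from -0.13 to 0.64 in G1 from -1.10 to -0.60 in G2 and from -0.97 to -1.24 in G3 on the log2 scale. At Bcl2 they were 98, 58 and 8, and at Bcl2l1 129, 59 and 34, lowest in mOC-ABs at both. With them Bcl2 was at -1.67 in G2 and -1.35 in G3. At Bid they were 45, 28 and 36, of which NONMMUT058677.2 over the last exon of Bid-204 had 2, 1 and 18. They were 36, 25 and 13 at Bad, and 25, 5 and 7 at Bcl2l11. All such transcripts at Bcl2l1, and some at Bcl2, Bid and Bcl2l11, cover no exon base of the member. Sums with them are thus not levels of the member's mRNA.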

How the results depend on the processing

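No paired analysis was possible because each group has 1 library, and for the same reason no replicate could be left out. Of 210 alternative log2 ratios of single members 160 moved by less than the counting interval, 49 moved further, and 1 that had been past 2-fold turned its sign. The sign changed in 12 of the 210, in 6 members, of which 4 had a size of at least 0.2 before, all with the most read transcript only. These were Bcl2l1 in G1 (-0.91 in place of 0.74) and in G3 (0.63 in place of -1.32, the ratio that had been past 2-fold), Bcl2l11 in G3 (0.38 in place of -0.34) and Bbc3 in G3 (0.24 in place of -0.97). The 33 alternative medians stayed within the spread of the members' own ratios, without the lowest and the highest, which is a wide limit. The median of G2 still changed its sign, from -0.08 to 0.25 with the most read transcript only and to 0.06 with the Bcl2a1 copies summed. The number of members past 2-fold in G1 became 2 on protein-coding transcripts only and 3 on the most read transcript only. In G2 it became 1 on protein-coding transcripts only, where Bid and Bbc3 were lost and Bak1 was gained. With the most read transcript only Bak1, Bad and Bcl2l11 took the place of both, with FPKM Bcl2l1 was added, and with lncRNA-table reads added Bcl2 replaced Bbc3. In G3 it became 2 with FPKM, 0 with the most read transcript only and 3 with lncRNA-table reads added. The number of member transcripts past 2-fold became 18 of 42 in G1 and 19 of 42 in G3 with every transcript. At 100 reads or more it was 9 of 19 in G2 and 7 of 19 in G3. The number of transcripts kept thus changed as well, from 30 as reported, and shares over all transcripts at these limits were not computed. In the BMM-AB, pOC-AB and mOC-AB libraries the protein-coding share was 83.0%, 89.4% and 95.3% with FPKM and 72.9%, 87.8% and 92.7% without Mcl1. The pro-survival share was 61.4%, 51.3% and 52.7% with reads and 8.66%, 8.19% and 5.27% without Mcl1. Bid stayed above 2 in G1 and G2 and Bcl2l1 below 0.5 in G3 under all 3 other scalings, under which Bbc3 stayed below 0.5 in G2. Scaling to both tables put Bcl2 just past 2-fold in G2 as well. Depth limits Bcl2 and Bcl2a1b, whose intervals span 2-fold or no difference, and makes those of the least read transcripts wide.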
